A study of Felis catus with 12 samples.

Results

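The small leucine-rich proteoglycans and the large proteoglycan versican were examined in left ventricular muscle of cats. The 9 genes were chosen by name from the 30785 genes listed. KERA was picked for its higher reads in cats with arterial thromboembolism (ATE), so its levels by outcome are given as a description, without a test. The samples were 12 direct RNA libraries, 1 for each cat, sequenced on Oxford Nanopore flow cells. Flow cell A (PAK20671 in the labels) held cats 11, 23, 30 and 31, flow cell B (PAM73681) held cats 10, 15, 35 and 36, and flow cell C (PAM73696) held cats 37, 38, 29 and 22. Beyond the tissue, the labels give the flow cell, the barcode and the cat number. The outcome, age and myocardial fibrosis of each cat were joined from the study's list by cat number. Congestive heart failure (HF) was listed for 6 cats (11, 15, 30, 31, 35 and 37), ATE for 3 cats (10, 23 and 38) and no known cardiac death for 1 cat (36). The same list gives ATE for cat 22 and no known cardiac death for cat 29, but the study names other cats as sequenced in their place. The outcome of these 2 libraries was therefore taken as unknown, and they entered the flow cell comparisons only, apart from alternatives that are named. All were client-owned cats with spontaneous disease, sampled post mortem, of mixed ages, breeds and sexes, with no assigned treatment. The outcome is the documented cause of death, and heart failure was also recorded for cat 10 of the ATE group.

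Small leucine-rich proteoglycans are secreted proteins with a curved core of leucine-rich repeats, which bind collagen and set fibril spacing and thickness. Class I members (DCN, BGN and ASPN) carry chondroitin or dermatan sulfate chains or, in ASPN, an aspartate-rich stretch. Class II (LUM, FMOD, PRELP and KERA) includes the keratan sulfate proteoglycans, and OGN belongs to class III. Versican (VCAN) is not a member of the family. It is a hyaluronan-binding proteoglycan of loose, hydrated matrix. In the heart these genes are mainly transcribed by fibroblasts, and keratocan is best known from the cornea.

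The deposited value of a gene is its reads divided by a size factor for the library, so values compare libraries and not genes, whose lengths were not used here. Libraries held 789257 to 2263110 reads on genes. All 9 genes together took 0.0223% of these reads in cat 15 and 0.234% in cat 23. Over the 12 libraries, DCN had 7106 reads, LUM 2606, VCAN 849, BGN 822, OGN 284, PRELP 274, KERA 159, ASPN 74 and FMOD 40. A gene was tested if 3 or more of the 10 libraries with a known outcome held 10 or more of its reads, and 8715 genes and 8 of the 9 members met this. FMOD did not, with 10 reads in only 1 such library. ASPN and KERA fell just inside, with 3 libraries each. KERA passed through the 3 ATE libraries alone, and thus had to be high in that group.

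In the gene order of the RefSeq annotation of another assembly (F.catus_Fca126_mat1.0), most members lie beside each other. KERA, LUM and DCN are consecutive on chromosome B4, next to EPYC. FMOD and PRELP are neighbours on chromosome F1, followed by OPTC. OGN and ASPN lie on chromosome D4 with OMD between them. BGN on chromosome X and VCAN on chromosome A1 stand alone. These neighbours of the same family had few reads in this tissue, with 80 for EPYC, 2 for OMD and 0 for OPTC over all libraries. EPYC still had more reads than the members ASPN (74) and FMOD (40). ECM2, next to ASPN, had 69.

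DCN, which encodes decorin, the collagen-binding and TGF-beta-binding proteoglycan, had deposited values of 580.1, 1308, 638 and 281 on flow cell A in cats 11, 23, 30 and 31. On flow cell B, the values were 388, 184, 372 and 512 in cats 10, 15, 35 and 36. On flow cell C, they were 383, 666, 644 and 728 in cats 37, 38, 29 and 22. Cat 23 was highest and cat 15 lowest, and all 3 flow cells overlapped. The coefficient of variation between cats was 52.2%, where counting alone would give 4.33%.

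LUM, which encodes lumican, a regulator of fibril assembly, had values of 191, 654, 231 and 106 on flow cell A, in the same order of cats. The values were 121, 38.1, 89.8 and 78.4 on flow cell B and 146, 332, 142 and 402 on flow cell C. Every library of flow cell C lay above every library of flow cell B, and flow cell A spanned both. Cat 23 again stood highest and cat 15 lowest, 17.2-fold apart. LUM was the sixth most similar of the tested genes to DCN over the 12 libraries, after the 5 named further on.

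OGN, the class III member osteoglycin, ranged more widely. Its values were 8.20, 63.1, 32.0 and 15.2 on flow cell A, 10.1, 1.36, 7.88 and 19.6 on flow cell B, and 18.6, 44.1, 14.4 and 47.3 on flow cell C. Cats 23, 22 and 38 held the 3 highest values, as they did for DCN and LUM. Cat 15 was lowest, with 1 read.

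Of the other members, BGN, which encodes biglycan, a ligand of Toll-like receptors as well as of collagen, ranged from 8.90 in cat 36 to 184 in cat 23 with a median of 55.8. PRELP, a basement membrane anchor that binds heparan sulfate, ranged from 9.17 in cat 11 to 48.4 in cat 23 with a median of 19.6. ASPN, which encodes asporin, an inhibitor of TGF-beta in cartilage, ranged from 0 in cat 36 to 14.8 in cat 23. FMOD, which encodes fibromodulin, a collagen cross-linking modulator, ranged from 0 in cats 15 and 29 to 13.4 in cat 23. A count of 0 allows up to 3 reads, which is a value of 2.67 in cat 36, 4.08 in cat 15 and 3.33 in cat 29. These limits, and the counting shares above, cover counting error only. Cat 23 thus held the highest value of 8 of the 9 genes, and the second highest of VCAN. Cat 38 was among the 3 highest libraries for 7 of the 9 and cat 22 for 5. Cat 15 was lowest, or tied for lowest, in 5.

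VCAN did not follow this order. Its values on flow cell A were 155, 95.4, 83.3 and 58.2 in cats 11, 23, 30 and 31. The values on flow cell B were 31.6, 14.98, 46.5 and 49.0, and on flow cell C they were 31.5, 39.0, 37.7 and 29.7. The 4 libraries of flow cell A were the 4 highest, and cat 22, second for DCN, was next to last.

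**Figure D1:**
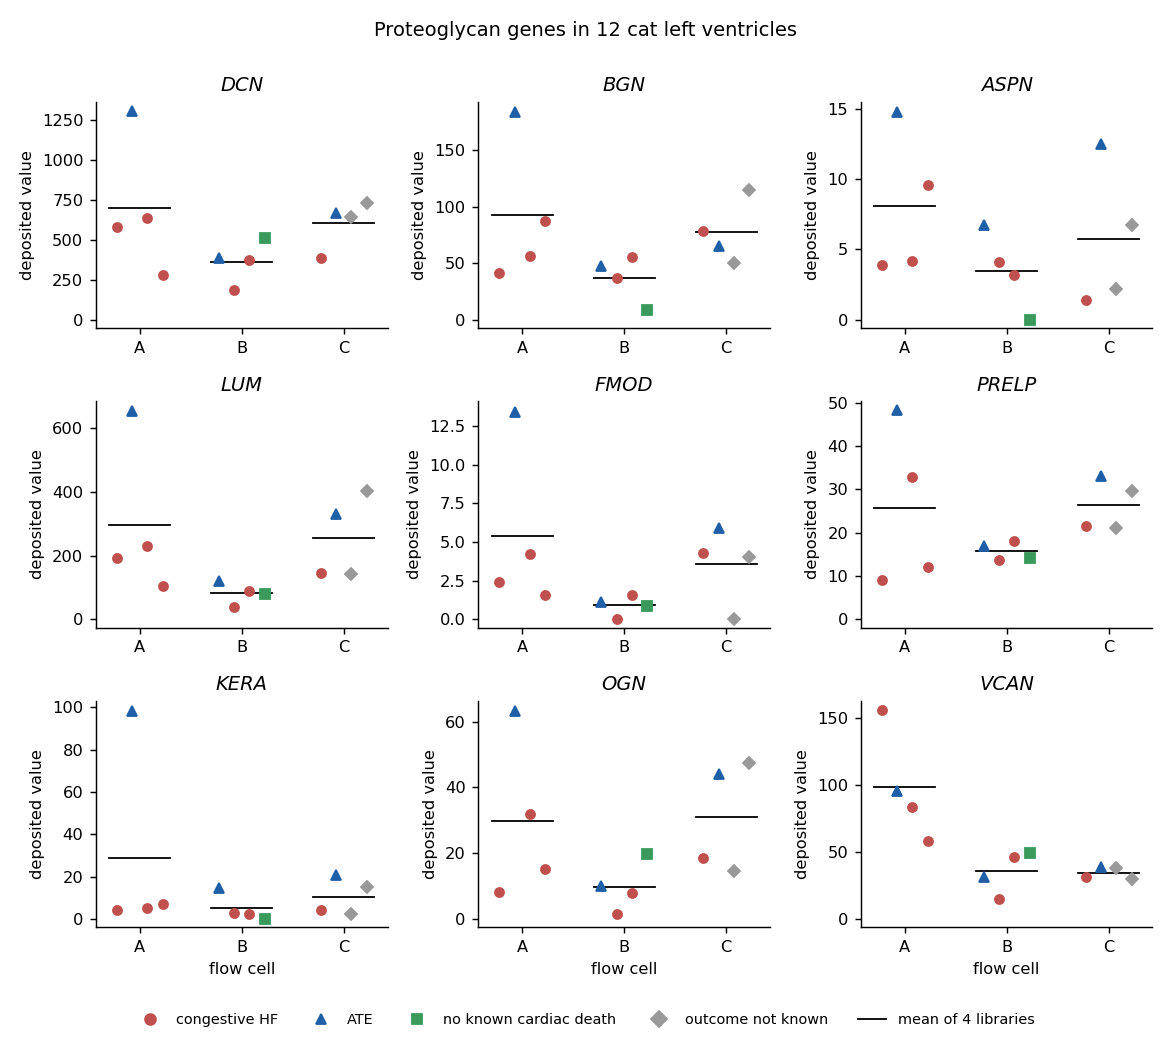
Deposited value (reads divided by the size factor of the library) of each of the 9 genes on flow cells A, B and C, with 4 libraries each, in the order of cats given in the text. Symbols mark the outcome and black lines the mean of 4 libraries. Cat 23, the ATE library on flow cell A, is highest in every panel but that of VCAN, in which all 4 libraries of flow cell A lie above the other 8.

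KERA, which encodes keratocan, had 73 reads in cat 23, 28 in cat 38 and 13 in cat 10, the 3 ATE libraries. In congestive HF, it had 9 reads in cat 11, 2 in cat 15, 6 in cat 30, 9 in cat 31, 3 in cat 35 and 3 in cat 37. Cat 36, without known cardiac death, had 0 reads. The 2 libraries of unknown outcome had 11 reads in cat 22 and 2 in cat 29. These reads are the values by which KERA was chosen, and the ATE libraries lay above all congestive HF libraries by that choice.

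As deposited values, KERA was 98.1 in cat 23, 20.6 in cat 38 and 14.7 in cat 10. Congestive HF libraries ran from 2.36 to 7.18 with a median of 4.32. The library labelled cat 22, at 14.9, lay above the lowest ATE library and above all congestive HF libraries. KERA varied most between cats, with a coefficient of variation of 184% against 28.4% from counting. Without cat 23, the difference between ATE and congestive HF was 1.85 on the log2(value + 1) scale, against 2.66 with it.

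Relative to its chromosomal neighbour LUM, KERA had 14.99 reads per 100 LUM reads in cat 23, 12.1 in cat 10 and 6.21 in cat 38. In congestive HF, this ratio ran from 2.19 to 7.14, with cats 15 and 31 above cat 38. The outcome groups therefore overlapped in KERA relative to LUM, although the ratio of cat 15 rests on 2 KERA and 28 LUM reads. Relative to DCN they did not overlap, with 3.09 to 7.49 KERA reads per 100 DCN reads in ATE and 0.636 to 2.56 in congestive HF. Of all genes tested, 0.998% did not overlap in this direction in deposited value. No such share was computed relative to DCN, and nothing is read from this for KERA.

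**Figure D2:**
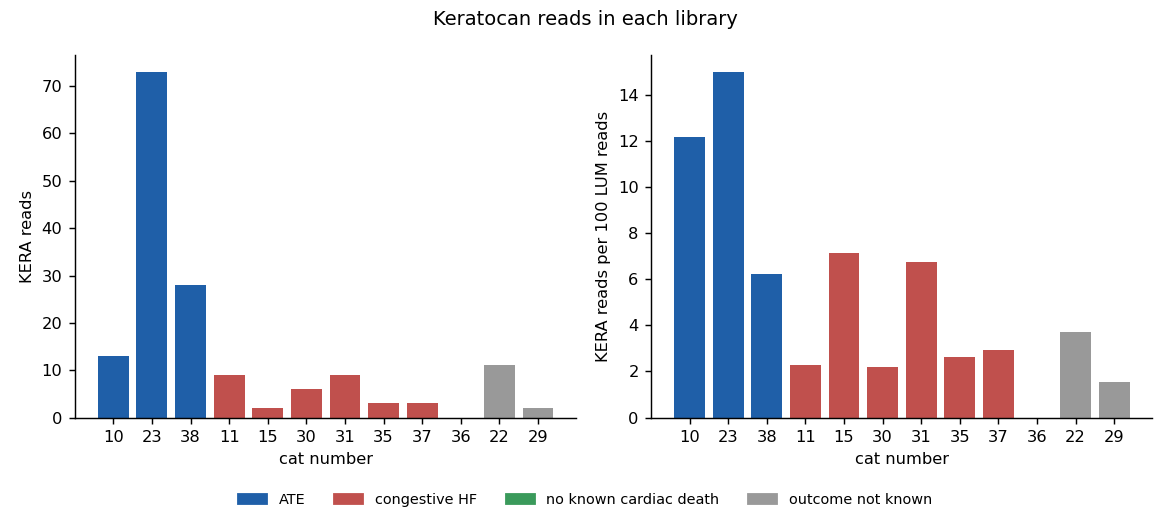
KERA reads (left) and KERA reads per 100 LUM reads (right) in each of the 12 libraries, by cat number, coloured by outcome. The 3 ATE libraries, with 13 to 73 reads, exceed the 6 congestive HF libraries, with 2 to 9, whereas per 100 LUM reads cat 38 lies below cats 15 and 31.

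The other members were compared between ATE and congestive HF, the outcome comparison of the study, with limma on log2(value + 1). Of the tested members other than KERA, 6 of 7 had a positive difference, where 50.2% of all genes tested had one, and none passed the test. Between these groups 0 genes were called by limma at an adjusted p under 0.05, a background of 0%, and 384 at an unadjusted p under 0.05. edgeR on the whole reads also called 0 genes, and DESeq2 called 1, which was KERA and is no evidence, since KERA was chosen on this contrast. In any bulk sample, a lower number of cells of one type and less RNA per cell cannot be told apart.

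DCN averaged 787 ± 472 in ATE (SD, n = 3) and 406 ± 174 in congestive HF (SD, n = 6), a log2 difference of 0.90 ± 0.43 (SE, limma adjusted p = 0.960). The 2 groups overlapped, with cat 10 within the range of congestive HF. LUM averaged 369 ± 269 against 134 ± 70.2, a log2 difference of 1.36 ± 0.56 (limma adjusted p = 0.960). For OGN, the difference was 1.502 ± 0.74, for ASPN 1.27 ± 0.56, for PRELP 0.84 ± 0.43 and for BGN 0.55 ± 0.41 on the same log2 scale. The adjusted p was 0.960 for each of these 4 by limma. For VCAN, the difference was -0.05 ± 0.59 (limma adjusted p = 0.997), with an interval from -1.31 to 1.22, and its sign changed to 0.19 with flow cell in the fit. ASPN and LUM had an unadjusted p under 0.05, which is 2 of the 7 members, where 2.28% of all genes tested had one in this direction.

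**Figure D3:**
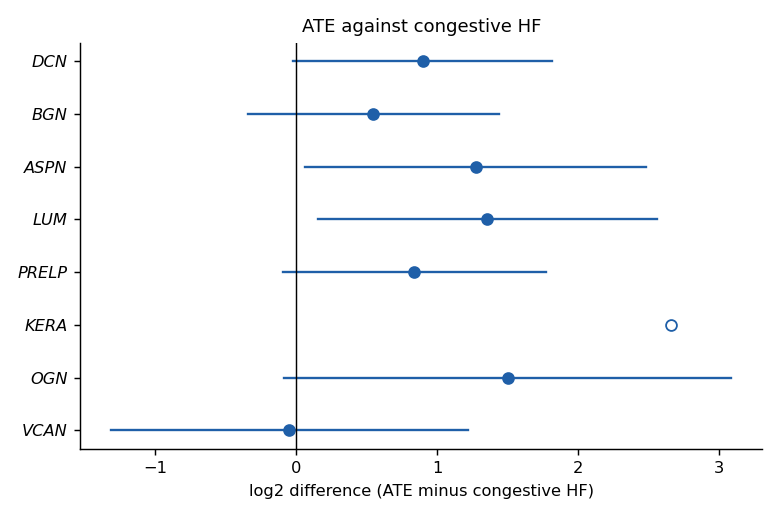
Difference between 3 ATE and 6 congestive HF libraries in mean log2(value + 1) for the 8 tested genes, with 95% intervals from limma. KERA, chosen on this contrast, is drawn as an open point without an interval. Apart from KERA, at 2.66, the points of the small leucine-rich proteoglycans lie at 0.55 (BGN) or above, and VCAN lies at -0.05.

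Each flow cell held 1 ATE library, so the outcomes could be set beside each other within flow cells. DCN in the ATE library was 2.62 times the mean of the congestive HF libraries on flow cell A, 1.40 times on B and 1.74 times on C. That mean is of 3 libraries on A and 2 on B, and on C it is 1 library, cat 37. LUM was 3.72, 1.89 and 2.27 times that mean, and OGN 3.42, 2.20 and 2.37 times. ASPN had few reads, with 6 in cat 10 against 3 and 4 in cats 15 and 35, and 17 in cat 38 against 1 in cat 37. It was also higher in the ATE library than in every congestive HF library on all 3 flow cells. This held for 4 of the 7 tested members other than KERA, and for 4.75% of all genes tested. It did not hold for PRELP (1.07 times on flow cell B), BGN (0.832 times on flow cell C) or VCAN (0.963 times on flow cell A). The members are not independent of each other, since cat 23 is highest in most of them. With flow cell in the fit, the log2 difference was 0.98 for DCN, 1.43 for LUM and 1.51 for OGN, and the adjusted p was 0.604 for LUM and 0.825 for the other two by limma. In the fit without flow cell and without cat 23, the log2 difference was 0.44 for DCN, 0.79 for LUM, 0.997 for OGN and -0.02 for BGN.

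Markers of cell types were read beside these values. The summed value of 9 fibroblast markers ran from 266 to 1422 in ATE and from 215 to 848 in congestive HF, with cat 23 highest. Most of the sum in cat 23 came from COL1A2 (591) and COL3A1 (525). These genes, PDGFRA, PDGFRL and PI16 were each highest in cat 23 of the 12 libraries. COL1A1, DPT and MFAP5 were not, with DPT at 84.6 in cat 23 and 151 in cat 35. TCF21 was lowest in cat 23. The summed value of 9 tendon or valve markers ran from 101 to 355 in ATE and from 37.8 to 163 in congestive HF. In that list, SCX, the tendon transcription factor, had reads in all libraries, with values of 145, 131.6 and 94.7 in cats 23, 38 and 10 and from 30.7 to 124 in congestive HF, where cat 37 was highest. Its log2 difference was 1.20 (limma adjusted p = 0.960), with an unadjusted p under 0.05. THBS4, a matricellular protein of tendon and muscle, had 130 reads in cat 23, 51 in cat 22 and 50 in cat 38. The others had 1 to 20 reads. Among these, cat 10 of the ATE group had 4, fewer than cats 11, 30, 31 and 37 of congestive HF. CILP, also tested, had values of 26.9, 10.3 and 1.13 in cats 23, 38 and 10. In congestive HF, CILP ran from 0 in cat 15 to 15.2 in cat 30. COL12A1 of the same list went the other way, with 17 reads in cat 31, 7 in cat 11 and 0 in cats 23, 38 and 10. COL11A1 had 7 reads in cat 11 and 1 in cat 23. Several other tendon and cartilage genes were at or near 0. Over all libraries, TNMD had 11 reads, COMP 1, CHAD 3 and ACAN 0, whereas SOX9 of the cartilage list had 90 reads. Cardiomyocyte markers, which define the labelled left ventricular tissue, were present in every library, and their summed value ran from 22191 to 33957 (median 31862) in ATE and from 16488 to 31672 (median 18083) in congestive HF. The summed smooth muscle markers had a median of 159 in ATE and 327 in congestive HF. These sums and medians take no account of flow cell. Flow cell A held 3 of the 6 congestive HF libraries and 1 of the 3 ATE libraries. The part of the cell type markers in the member values was not tested.

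The flow cells were compared because they are the one grouping that the labels give. Each held a different set of 4 cats, so flow cell and cats cannot be told apart in these comparisons. VCAN was higher on flow cell A than on the other 2, at 98.1 ± 41.2 (SD, n = 4) against 34.98 ± 10.7 (SD, n = 8), a log2 difference of 1.44 ± 0.31 (SE, limma adjusted p = 0.0151). No value of flow cell A overlapped those of B and C. VCAN was the one member called of the 8 tested, where 5.12% of all genes tested were called and 1.62% were called higher. By the other measures, 1 of 8 members had an unadjusted p under 0.05 and 1 of 8 did not overlap in this direction, where 9.42% and 1.72% of all genes did. The call rested on cat 11: without it, the difference was 1.19 with a limma adjusted p of 0.0923. Without any other single library, the adjusted p stayed under 0.05.

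For the 7 tested small leucine-rich proteoglycans, the differences between flow cell A and the others ran from 0.04 (PRELP) to 1.15 (KERA), with a median of 0.70 against 0.03 for all genes tested. None passed the test. For DCN, the difference was 0.44 ± 0.37 (SE), with an interval from -0.34 to 1.22 and a limma adjusted p of 0.526. For LUM, it was 0.83 ± 0.53 with an interval from -0.29 to 1.95 (limma adjusted p = 0.381). The intervals of both overlap that of VCAN, from 0.80 to 2.09, so VCAN was compared with DCN within libraries. There were 26.8, 7.29, 13.1 and 20.7 VCAN reads per 100 DCN reads in cats 11, 23, 30 and 31 on flow cell A. On the other flow cells, this ratio ran from 4.08 to 12.5. Cats 11, 30 and 31 lay above all others, and cat 23 did not. The ratio was 2.05-fold higher on flow cell A by the geometric mean (p = 0.0404, two-sided, exact permutation of libraries, n = 4 and 8), a comparison chosen after the values were seen. This p rose above 0.05 without cat 11, 30, 31, 38, 29 or 22, to at most 0.121 by the same exact test.

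Between flow cells B and C, all 8 members had lower means on the log2 scale on B. Their median difference was -1.003 against 0.002 for all genes tested, of which 50.2% had higher means on B. limma called 0 genes here, a background of 0%, and 686 at an unadjusted p under 0.05, while edgeR called 0 and DESeq2 23 genes, none of them a member. LUM was 81.7 ± 34.1 on B and 255 ± 132 on C (SD, n = 4 each), a log2 difference of -1.59 ± 0.49 (SE, limma adjusted p = 0.426). For OGN, the difference was -1.77 ± 0.66 and for BGN -1.24 ± 0.51. LUM, OGN and BGN had an unadjusted p under 0.05, where 3.87% of all genes tested had one in this direction. LUM and PRELP did not overlap between the 2 flow cells, where 2.02% of all genes did not in this direction. VCAN differed by -0.08 ± 0.36, with an interval from -0.84 to 0.68. Flow cell C held the 2 libraries of unknown outcome, so cats, outcomes and flow cells cannot be told apart here.

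**Figure D4:**
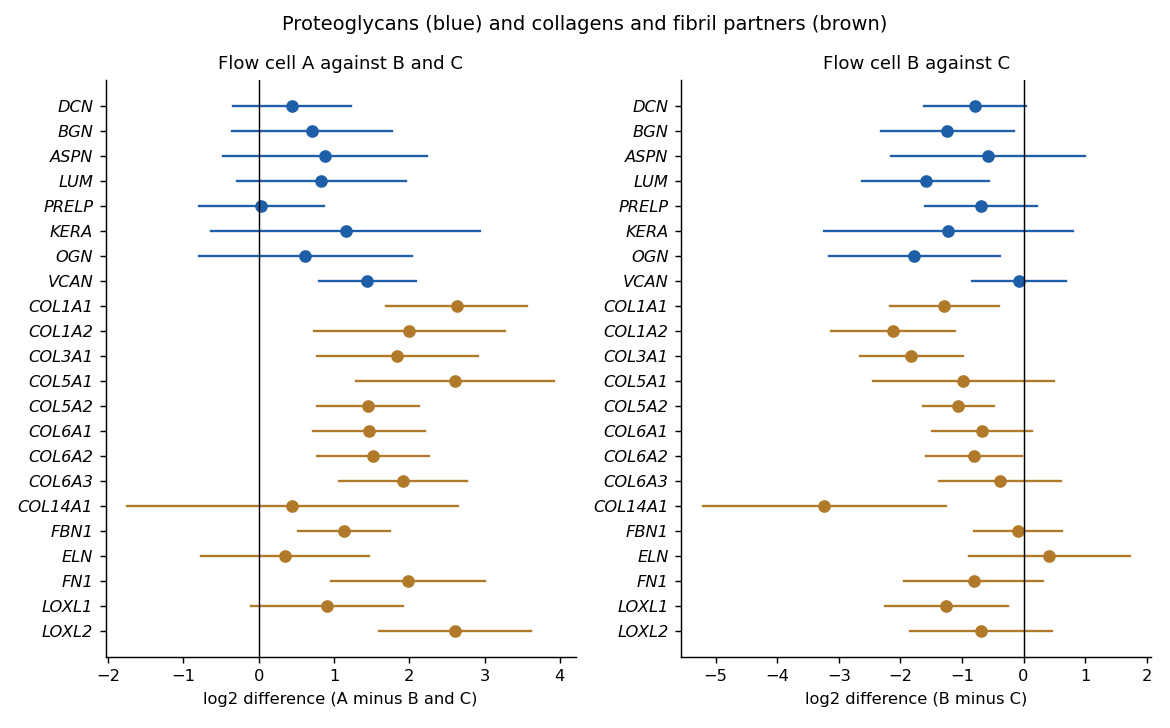
Differences in mean log2(value + 1) with 95% intervals from limma, for flow cell A against B and C (left) and B against C (right), for the 8 tested members (blue) and the 14 tested collagens and fibril partners (brown). VCAN lies at 1.44 on the left and at -0.08 on the right, while LUM lies at 0.83 and at -1.59.

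Other genes of the matrix were read by lists. Of all 8715 genes tested, 1.62% were called higher on flow cell A, and 305 were called lower. Of 14 tested collagens and fibril partners, to which the small leucine-rich proteoglycans bind, 10 were called higher on flow cell A and 0 lower. COL1A1, a chain of the main fibrillar collagen, was 77.4 ± 23.9 on flow cell A and 13.2 ± 7.25 on the others, a log2 difference of 2.63 (limma adjusted p = 0.00569). LOXL2, a collagen cross-linking enzyme, differed by 2.60, COL6A3 by 1.92, COL5A2 by 1.45, FN1, which encodes fibronectin, by 1.98 and COL3A1 by 1.84. COL1A2 differed by 2.00 and did not pass (limma adjusted p = 0.0630). VCAN was thus called together with most genes of this list, and the 7 tested small leucine-rich proteoglycans were not called.

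Of 14 other tested proteoglycans, 2 were called higher and 0 lower. These were SDC2, the membrane heparan sulfate proteoglycan syndecan-2, with a log2 difference of 1.64, and PRG4, the lubricant proteoglycan, with 2.47. SDC4 differed by 0.18 and GPC1 by 0.21, and neither passed. Of 13 tested genes of chain synthesis, 2 were called higher and 0 lower. UGDH, which makes the UDP-glucuronate that the chains are built from, differed by 2.00, and CHSY1, a chondroitin synthase, by 1.33. FAM20B, the xylose kinase of the linkage region, differed by -0.38 and did not pass.

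Of 9 tested proteases, 1 was called higher and 0 lower. This was ADAMTS1, a protease that cleaves versican, with a log2 difference of 1.37, whereas MMP2 differed by -0.09 and ADAMTS9 by 1.07 without passing. Of 8 tested ligands and receptors, 2 were called higher and 0 lower, namely CD44, the hyaluronan receptor, by 2.13 and ITGB1, the beta-1 integrin chain, by 0.93. IGF1R differed by -0.09. Between ATE and congestive HF, and between flow cells B and C, 0 genes of all these lists were called.

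Cell type markers moved with flow cell A as well. Of 9 fibroblast markers, 2 were called higher, COL1A1 and COL3A1, which the collagen list also holds, while DPT, which encodes the decorin partner dermatopontin, differed by -0.54 without passing. Of 3 tested smooth muscle markers, CNN1 and TAGLN were called higher, by 5.90 and 2.63. Of 6 tested cardiomyocyte markers, 4 were called lower (MYBPC3 by -1.82, TNNI3 by -1.64, TNNT2 by -1.05 and PLN by -0.96). Among all 8715 genes tested, 141 were called higher and 305 lower. The summed cardiomyocyte markers ran from 16488 to 22191 on flow cell A and from 16950 to 36327 on the others. The summed smooth muscle markers ran from 369 to 1271 and from 88.5 to 286. Of the epicardial markers, 4 of 6 were at 0 in all libraries. None of 4 endothelial, 4 leukocyte, 3 tendon or valve, 1 cartilage, 1 epicardial and 1 adipocyte marker tested was called. The part of these shifts in the VCAN difference was not tested.

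Over the 12 libraries, the genes whose order of cats was most like that of DCN were MGP, HDAC9, FAM199X, RBM10 and ELL2. Their Spearman's rho was 0.96, 0.96, 0.95, 0.93 and 0.87, and Pearson's r was 0.96, 0.93, 0.80, 0.87 and 0.82. MGP encodes matrix Gla protein, an inhibitor of calcification, and had 61 to 553 reads per library. HDAC9, with 2 to 15 reads, FAM199X and RBM10 were sparse. Of the other members, LUM had a rho of 0.86 with DCN, OGN 0.78, PRELP 0.71, KERA 0.51, BGN 0.43, ASPN 0.35 and VCAN 0.25.

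VCAN was most like ATG5, LOC102902241, PID1, LCP1 and ANKRD13C, with rho values of 0.97, 0.91, 0.90, 0.90 and 0.89. ATG5 is an autophagy gene and LCP1 encodes plastin of leukocytes. The rho of VCAN with the other tested members ran from -0.04 (PRELP) to 0.27 (LUM). These values describe the order of the same 12 libraries, which share flow cells and depth, and carry no test.

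Myocardial fibrosis, fibrotic area as a share of fibrotic plus cardiomyocyte area with large border patches left out, was known for 8 cats. The study measured it on transversal sections holding both ventricles and the septum. The RNA came from another piece of tissue, the left ventricular free wall beside that section. Cats 23 and 15 held the highest percentages, and DCN, LUM and OGN placed them at opposite ends. Cat 23 was first of these 8 cats in every member but VCAN, in which it was second. Cat 15 was last of them in DCN, LUM, OGN, VCAN and FMOD, with 0 reads of FMOD. DCN was 7.12-fold, LUM 17.2-fold, VCAN 6.37-fold, BGN 5.01-fold and PRELP 3.55-fold higher in cat 23 than in cat 15. OGN had 47 reads in cat 23 and 1 read in cat 15.

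**Figure D5:**
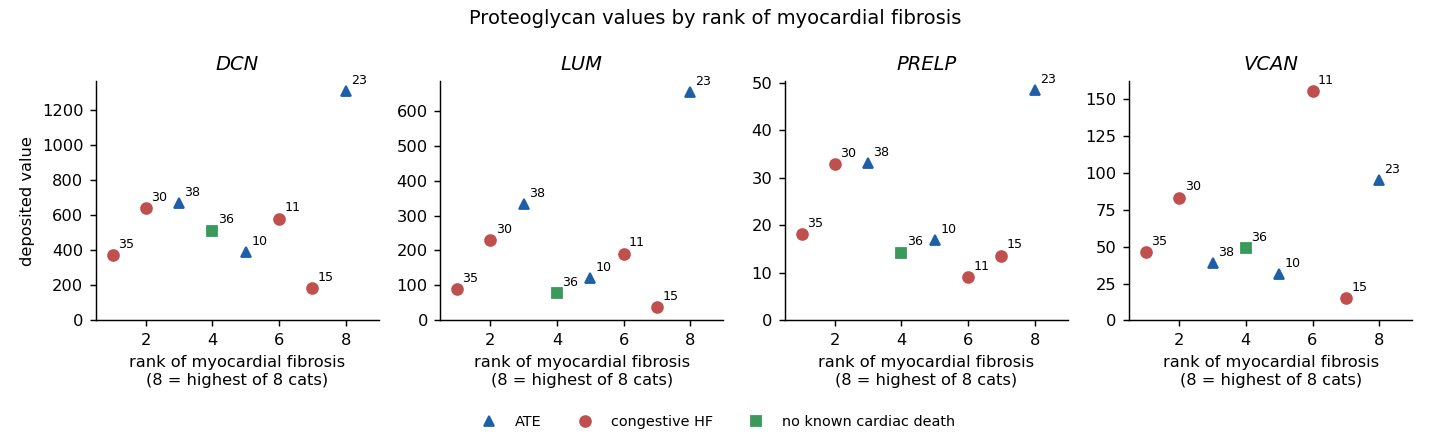
Deposited value of DCN, LUM, PRELP and VCAN by the rank of myocardial fibrosis among 8 cats, labelled by cat number and marked by outcome. The 2 cats with the most fibrosis, 23 and 15, are the highest and the lowest in DCN and LUM.

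Across these 8 cats, Spearman's rho with fibrosis ran from -0.19 (PRELP) to 0.36 (ASPN), with exact permutation p-values from 0.389 to 0.977. None of the 8 tested members was called by this test (adjusted p = 1.0), and of all genes tested 0% were called and 247 had an unadjusted p under 0.05. Pearson's r ran from 0.04 (VCAN, exact permutation p = 0.947) to 0.59 (KERA). KERA was picked for its reads in ATE libraries, among them cat 23 with the most fibrosis, so nothing is read from its r. Without cats 23 and 15, r ran from -0.55 (PRELP) to 0.35 (VCAN), and that of KERA was 0.26. Centred on flow cells, over 7 cats, r ran from -0.26 (VCAN) to 0.66 (ASPN), with exact permutation p-values from 0.188 to 0.875.

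With age, known for 9 cats, rho ran from -0.18 (VCAN) to 0.48 (PRELP), with exact permutation p-values from 0.194 to 0.810. Here, too, 0% of all genes tested were called, with 415 at an unadjusted p under 0.05, and the adjusted p of the 8 tested members ran from 0.941 to 1.0. PRELP had an r of 0.52 (exact permutation p = 0.151), and this r became 0.73 when cats 30 and 15 were left out and 0.40 when cats 30 and 36 were. After centring on each flow cell, r ran from -0.35 (VCAN) to 0.56 (PRELP), with exact permutation p-values from 0.319 to 0.993. In all, 18 relations of a member with a trait were computed.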

How the data were processed

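Base calling by the authors used Guppy and a quality filter, Minimap2 placed the reads on felCat9, and FeatureCounts assigned them to genes, with the strand setting and the Minimap2 and FeatureCounts versions not given in the sources used here. The deposited signal values are these reads divided by a median-of-ratios size factor, and in every library 100% of values were whole reads within 1e-06 after multiplication. As values are not counts, limma with an intensity trend was run on log2(value + 1), with Benjamini-Hochberg adjustment over 8715 genes. Spearman's rho was tested by two-sided exact permutation over cats. edgeR and DESeq2 on the whole reads, other pseudocounts, filters, scalings and each library left out were alternatives. edgeR called 435 genes and limma 446 for flow cell A. With 1 library per cat, p-values measure the spread between cats. Members and lists were chosen with earlier results of these data known. All members were named, with up to 3 genes of each list by reads and up to 4 called, and the 5 genes most like DCN and VCAN. Other list genes named were chosen after their values were seen. MSLN, FABP4, MYH7, CHST6 and MMP3 were not analysed here. The tests were tried on simulated data. Tools were R 4.3.3, limma 3.58.1, edgeR 4.0.16, DESeq2 1.42.0, Python 3.11.15 and scipy 1.17.1.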

Additional observations from a re-analysis of the deposited data

Results flagged for a closer look

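Within groups of 4 to 6 libraries (the 3 flow cells and congestive HF), 2 of 36 combinations of a member and a group held a library far from the rest, where chance flags about 5% of groups. KERA was 98.1 in cat 23 on flow cell A, against 4.34 to 7.18 in the other 3 libraries. Cat 23 is the ATE library of that flow cell and the other 3 are congestive HF, so this repeats the reads for which KERA was picked. ASPN was 9.57 in cat 31 among the 6 congestive HF libraries, against 1.43 to 4.21 in the other 5, and that value rests on 12 reads.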

How the results depend on the processing

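Depth limits ASPN, FMOD and KERA, whose libraries hold few reads, and 1 library per cat limits all outcome and trait comparisons. VCAN on flow cell A was called under every alternative except without cat 11, and DESeq2 called 829 genes there in place of 446. Leaving out 1 library gave 51 to 501 calls for flow cell A, with 51 without cat 11, 129 without cat 31 and 295 without cat 15. For flow cells B and C, the count moved from 0 to 1 with a pseudocount of 2 (A2M), to 23 with DESeq2, and from 0 to 2 without 1 library (A2M, CA3, POSTN or LOC109497449). For ATE against congestive HF, it moved to 1 with all genes with a read (LOC102899473), to 1 with DESeq2 (KERA, the gene chosen on this contrast), and from 0 to 1 without 1 library (APOA1, without cat 37). No member other than KERA was among these small counts. For both traits, every alternative gave 0 calls. With 8 or 9 cats and 8715 genes a trait comparison can hardly pass the adjustment, so these zeros say nothing about stability.

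Where a member changed sign, it was called on neither side, and the cause was not tested. For VCAN between flow cells B and C, edgeR gave 0.065 and DESeq2 0.057, and for VCAN between outcomes, flow cell as a covariate gave 0.19. For fibrosis, the limma slope was -0.0004 for DCN, 0.11 for BGN, 0.013 for PRELP, -0.083 for OGN and -0.047 for VCAN. With flow cell as a covariate, it was -0.0135, 0.11, 0.021, -0.080 and -0.097 in that order, and -0.0065 for OGN with age. With unscaled reads, rho with fibrosis was 0.12 for BGN, -0.14 for OGN and -0.12 for VCAN, and rho with age was -0.20 for DCN, -0.13 for ASPN and -0.10 for OGN. With the unknown libraries as cats 22 and 29, rho with fibrosis was 0.067 for BGN and -0.18 for VCAN, and with age -0.0455 for DCN. Entered as cats 25 and 16, rho was -0.018 for LUM and -0.079 for OGN, and as cats 16 and 25, -0.018 for VCAN, all with fibrosis.

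Leaving out each library in turn changed the sign of these. The log2 difference ran from -0.36 to 0.40 for PRELP on flow cell A, from -0.96 to 0.033 for ASPN and from -0.28 to 0.27 for VCAN between flow cells B and C, and from -0.021 to 0.95 for BGN and from -0.52 to 0.27 for VCAN between outcomes. For fibrosis, rho ran from -0.32 to 0.43 (DCN), -0.39 to 0.36 (LUM), -0.43 to 0.32 (OGN) and -0.29 to 0.43 (VCAN). For age, it ran from -0.12 to 0.43 (DCN), -0.17 to 0.43 (BGN), -0.12 to 0.38 (ASPN), -0.21 to 0.38 (KERA), -0.12 to 0.43 (OGN) and -0.50 to 0.024 (VCAN). The labels give no replicate number that groups share, so no fit with a replicate block was made, and the fit with flow cell as a covariate is the matched one.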
